A study of Mus musculus with 12 samples.

Results

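The difference between muscles TA and QF of control mice at 3 weeks of age was measured on 6 of the 12 arrays of the series. The 3 Control_TA arrays and the 3 Control_QF arrays were chosen by their titles, which name C57BL/10 mice, and every probe set other than the array's own controls was used. The control mice carried Dysf +/+ as labelled, with no transgene, Cre or treatment, and all mice of the series shared the age of 3 weeks. From knowledge of the study, QF is the quadriceps femoris of the thigh and TA the tibialis anterior of the shin, so the title's question concerns a proximal and a distal hindlimb muscle. The other 6 arrays held the same muscles of the line C57BL/10-SJL.Dysf, labelled Dysf -/-, with 3 arrays each for Dysf_null_QF and Dysf_null_TA. They entered the fit to estimate the spread, and their own difference between muscles is given beside that of the controls. The labels do not say whether a replicate is a mouse, a pool or a repeat hybridisation. The p-values therefore speak only of the spread among arrays within groups, pooled by limma over all 12 arrays, part of which could be technical.

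Both muscles are built mainly of fast fibres and differ in position along the limb, in load and in the tissue that surrounds them. Force in a fibre is passed on at the Z-disc, where titin and actin filaments are anchored, and a group of proteins at the Z-disc and along titin is known to change with load. Homeobox genes laid down in the embryo mark position along the limb and stay active in adult tissue. Fat cells lie between fibres and muscles and store triglyceride, and fibres adjust their own protein breakdown to fasting and stress hormones.

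Each value below is a log2 intensity of a probe set, the summed signal of a group of short probes for a gene. Differences are TA minus QF in Control on the log2 scale, with the SE and the adjusted p of limma fitted to all 12 arrays, and an adjusted p under 0.05 was called. All 10 defining markers of skeletal muscle were measured, and each lay at or above the 92.6th percentile of tested probe sets on every array. Xist, which marks female cells, was between 7.41 and 8.87 on the 6 control arrays with overlap of the muscles, and none of the 4 measured sex-linked genes was called. The QF arrays numbered 2 of both genotypes stood apart. Their median correlations with the other arrays were 0.866 in Control and 0.876 in Dysf_null, against 0.926 to 0.959 for the rest, and their median deposited intensities were 106.1 and 107.1, against 72.8 to 84.3. Without quantile normalization the median difference over all probe sets was -0.10, and with it 0, so each difference is relative to that centre.

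Between TA and QF of control mice, 76 of 10331 probe sets were called (0.736%), of which 42 were higher in TA (0.407%) and 34 lower in TA (0.329%). These belonged to 69 named genes, and 5 probe sets had no single name. Over all genes, with 1 probe set each, 0.917% were called, which is the share to set beside the list counts below. An unadjusted p under 0.05 in limma was reached by 9.86% of probe sets. The 3 arrays of TA lay above the 3 of QF for 843 probe sets (8.16%) and below for 579 (5.6%), and the muscles did not overlap for any of the 76 calls. The genes higher in TA were led by Z-disc and stretch genes, and those higher in QF included genes of fat cells, detoxification enzymes and genes of protein breakdown. The gene lists were chosen with earlier results of these data known, so their counts describe the difference and are no separate test of it. Leaving out both QF arrays numbered 2 gave 61 calls, 29 higher and 32 lower in TA, and 48 of the 76 were among them. The number of calls rose to 147 without replicate 3 of Control_QF and dropped to 46 without its replicate 1, and it was 36, 39 and 35 without replicates 1, 2 and 3 of Control_TA.

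**Figure D1:**
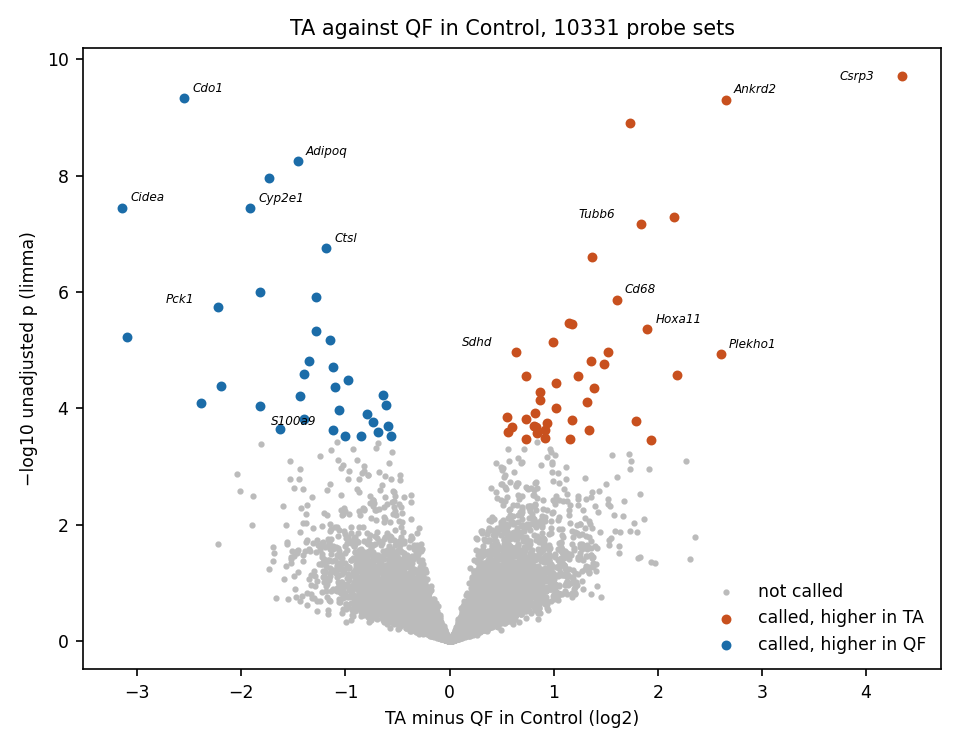
Difference between TA and QF in Control (log2, x axis) against the -log10 of the unadjusted limma p (y axis) for 10331 probe sets, with the 42 called higher in TA in orange, the 34 called higher in QF in blue and the rest in grey. Csrp3, at 4.35, lies farthest to the right and Cidea, at -3.14, farthest to the left.

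The Z-disc and stretch genes gave the largest differences towards TA. Of the 14 measured genes of that list, 5 were called higher in TA and none lower (35.7%, against 0.917% of all genes called). The list's median was 0.47 against 0 for all probe sets tested. Csrp3, muscle LIM protein, which binds alpha-actinin and telethonin at the Z-disc, stood at 8.63, 7.84 and 8.87 on the QF arrays and at 12.80, 12.63 and 12.96 on the TA arrays. All TA arrays lay far above all QF arrays, a difference of 4.35 ± 0.24 (SE, n = 3 arrays each), or 20.4-fold, with an adjusted p of 1.69e-06. Ankrd2, an ankyrin repeat protein that binds titin's N2A region and shuttles to the nucleus, stood at 9.64, 9.89 and 9.35 in QF and at 12.39, 12.14 and 12.30 in TA. Its difference was 2.65 ± 0.16, or 6.27-fold (adjusted p = 1.69e-06), with a wide gap between the muscles. Its relative Ankrd1, the cardiac ankyrin repeat protein of the same titin region, was lower in level, at 6.65, 6.18 and 7.59 in QF and 9.0, 8.82 and 9.15 in TA. The difference of Ankrd1 was 2.18 ± 0.34 (adjusted p = 0.00852). It was not called without replicate 1 or replicate 3 of Control_TA, with an adjusted p of up to 0.0698.

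Fhl1, a LIM-only protein that binds titin and myosin-binding protein C, was called by both of its probe sets. The one with the higher level read 11.65, 11.67 and 11.90 in QF and 13.60, 13.32 and 13.49 in TA, a difference of 1.73 ± 0.11 (adjusted p = 3.18e-06). The other differed by 2.15 ± 0.19 (adjusted p = 5.95e-05), so both placed every TA array above every QF array. Cryab, alpha-B crystallin, a small heat shock protein that protects desmin, titin and other filaments, read 9.92, 9.98 and 9.90 in QF and 11.49, 11.08 and 11.33 in TA. Its difference was 1.37 ± 0.14 (adjusted p = 0.000219), while a second probe set of Cryab close to the floor of 4.53 gave -0.25 ± 0.36. The called probe set carries the suffix f, by which the array marks probe sets that may share probes with related sequences.

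The remaining 9 genes of the list did not pass the test. Xirp1 and Nrap, actin-binding proteins of the intercalated disc and of the myotendinous junction, were 0.68 ± 0.16 and 0.62 ± 0.15 higher in TA with no overlap of arrays (adjusted p = 0.0844 and 0.104). Des, desmin itself, differed by 0.19, Ldb3 by 0.31, and Tcap, telethonin, by -0.49. The call of Csrp3, Ankrd2, Cryab and both Fhl1 probe sets was kept without any 1 array and under every alternative tried. The list counted 5 calls without both QF arrays numbered 2, and 4 without replicate 1 or 3 of Control_TA.

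**Figure D2:**
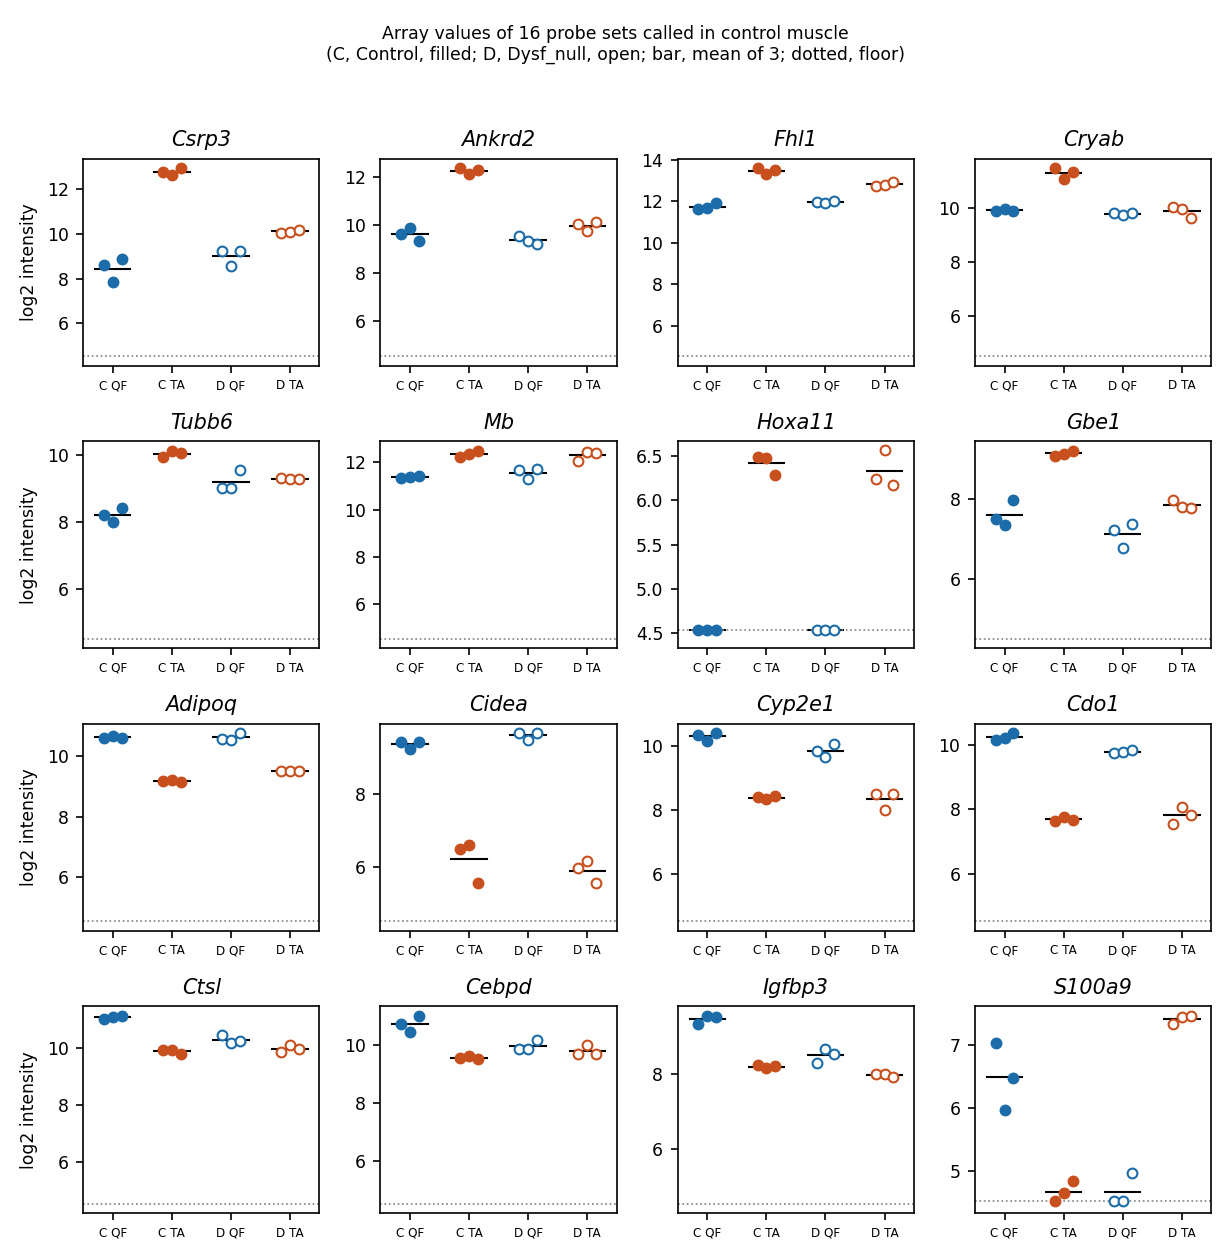
Log2 intensities (y axes, each panel with its own scale) of 16 called probe sets on the 3 arrays of each group, with Control filled, Dysf_null open, QF blue, TA orange, the mean of 3 arrays as a bar and the floor of 4.53 dotted. In every panel the filled QF and TA points do not overlap, and Csrp3 of Control reads 7.84 to 8.87 in QF and 12.63 to 12.96 in TA.

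Promoter sequences of 3 stretch genes higher in TA and of 2 fat genes higher in QF are shown because the genes of each set moved together between the muscles. RefSeq windows of GRCm38.p6 were used, each of 250 bases that end just before an annotated start, and 58 of the 69 called genes had one, which leaves out Cidea, Cdo1, Cryab and Tubb6. The build behind the array's probe sets is not given in the sources used here, so these coordinates belong to the promoters only. Capitals mark matches, on either strand, to motifs known from muscle and fat promoters. Csrp3 is shown by the first of its 2 windows, chr7:48848052-48848301 on the minus strand. Ankrd2 lies at chr19:42035777-42036026 on the plus strand, Ankrd1 at chr19:36119845-36120094 on the minus strand, Adipoq at chr16:23146286-23146535 on the plus strand and Pck1 at chr2:173152823-173153072 on the plus strand.
Csrp3: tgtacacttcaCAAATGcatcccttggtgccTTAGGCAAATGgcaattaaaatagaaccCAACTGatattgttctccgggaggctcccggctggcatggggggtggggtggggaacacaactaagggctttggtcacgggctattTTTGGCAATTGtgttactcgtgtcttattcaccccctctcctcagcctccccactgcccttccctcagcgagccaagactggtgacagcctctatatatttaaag
Ankrd2: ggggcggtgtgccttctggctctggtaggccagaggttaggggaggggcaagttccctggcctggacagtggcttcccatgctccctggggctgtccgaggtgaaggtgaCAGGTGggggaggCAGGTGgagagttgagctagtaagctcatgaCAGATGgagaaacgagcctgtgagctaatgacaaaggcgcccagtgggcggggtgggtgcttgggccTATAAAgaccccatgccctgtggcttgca
Ankrd1: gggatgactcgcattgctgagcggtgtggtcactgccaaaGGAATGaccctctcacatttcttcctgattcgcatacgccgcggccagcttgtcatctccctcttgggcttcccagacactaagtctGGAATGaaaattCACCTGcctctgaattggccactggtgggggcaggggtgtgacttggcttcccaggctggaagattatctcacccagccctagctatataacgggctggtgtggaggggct
Adipoq: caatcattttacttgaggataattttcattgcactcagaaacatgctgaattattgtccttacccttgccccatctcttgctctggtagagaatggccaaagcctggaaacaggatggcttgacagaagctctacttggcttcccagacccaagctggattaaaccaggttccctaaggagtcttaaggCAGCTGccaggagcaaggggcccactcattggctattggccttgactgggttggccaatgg
Pck1: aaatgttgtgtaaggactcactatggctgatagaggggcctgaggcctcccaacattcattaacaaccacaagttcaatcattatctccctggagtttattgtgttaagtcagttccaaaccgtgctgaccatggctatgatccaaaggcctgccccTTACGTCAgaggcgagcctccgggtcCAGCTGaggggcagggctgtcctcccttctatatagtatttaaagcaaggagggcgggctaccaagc

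The E-box, CANNTG, bound by MyoD and its relatives, matched 4 times in the window of Csrp3, 3 times in Ankrd2 and 1 time each in Ankrd1, Adipoq and Pck1. It is a common match, present in 66.2% of all 32851 windows of the same length. The M-CAT element, CATTCC, bound by TEAD factors, matched 2 times in Ankrd1, at 210 and 123 bases before the start, and in 12.6% of all windows. TTGCNNAA, bound by C/EBP factors, matched 2 times in Csrp3, each overlapping an E-box, and in 9.56% of windows. The cAMP response element, TNACGTCA, matched in Pck1 at 93 bases before the start and in 2.52% of windows, and TATAAA matched in Ankrd2 at 29 bases and in 12.4% of windows. The MEF2 motif (3.2% of windows) and the PPAR element (0.338%) had no match in these windows, which says only that these letters are not there.

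Genes of slow fibres did not move as a group, although 5 of 17 measured were called (29.4%, against 0.917% of all genes). Csrp3, Ankrd2 and Fhl1, described above, are known to be higher in slow than in fast muscle, and the 4th gene higher in TA was Mb, myoglobin, the oxygen store of oxidative fibres. Mb stood at 11.34, 11.37 and 11.43 in QF and at 12.25, 12.37 and 12.50 in TA, a difference of 0.99 ± 0.14 (adjusted p = 0.00329) with no overlap. A second Mb probe set near the floor gave -0.32 ± 0.45. The slow filament proteins went the other way or did not pass the test. Tpm3, slow alpha-tropomyosin, was lower in TA at 9.69, 9.68 and 9.82, against 10.34, 10.38 and 10.17 in QF. That difference of -0.56 ± 0.11 had an adjusted p of 0.043 and was lost on leaving out any 1 of 9 arrays. Myh7, the slow myosin heavy chain, differed by -0.52 ± 0.23 (adjusted p = 0.492), and Myl2 and Tnni1, a slow myosin light chain and slow troponin I, by -0.48 ± 0.12 and -0.47 ± 0.16 (adjusted p = 0.112 and 0.316). The median of the list was -0.12.

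None of the 18 measured fast fibre genes was called, and their median was -0.07. Of these, 3 had an unadjusted p under 0.05 in limma (9.86% of all probe sets did). Myh4, the IIB myosin heavy chain and the main myosin of fast mouse muscle, read 14.15, 14.01 and 14.33 in QF and 14.01, 14.10 and 14.10 in TA. The muscles overlapped, and the difference was -0.09 ± 0.12. Myh1, the IIX heavy chain, overlapped too and differed by 0.04 ± 0.19, while Mylpf, the fast regulatory light chain, differed by -0.58 and Myom2, M-protein, by 0.51, neither called.

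**Figure D3:**
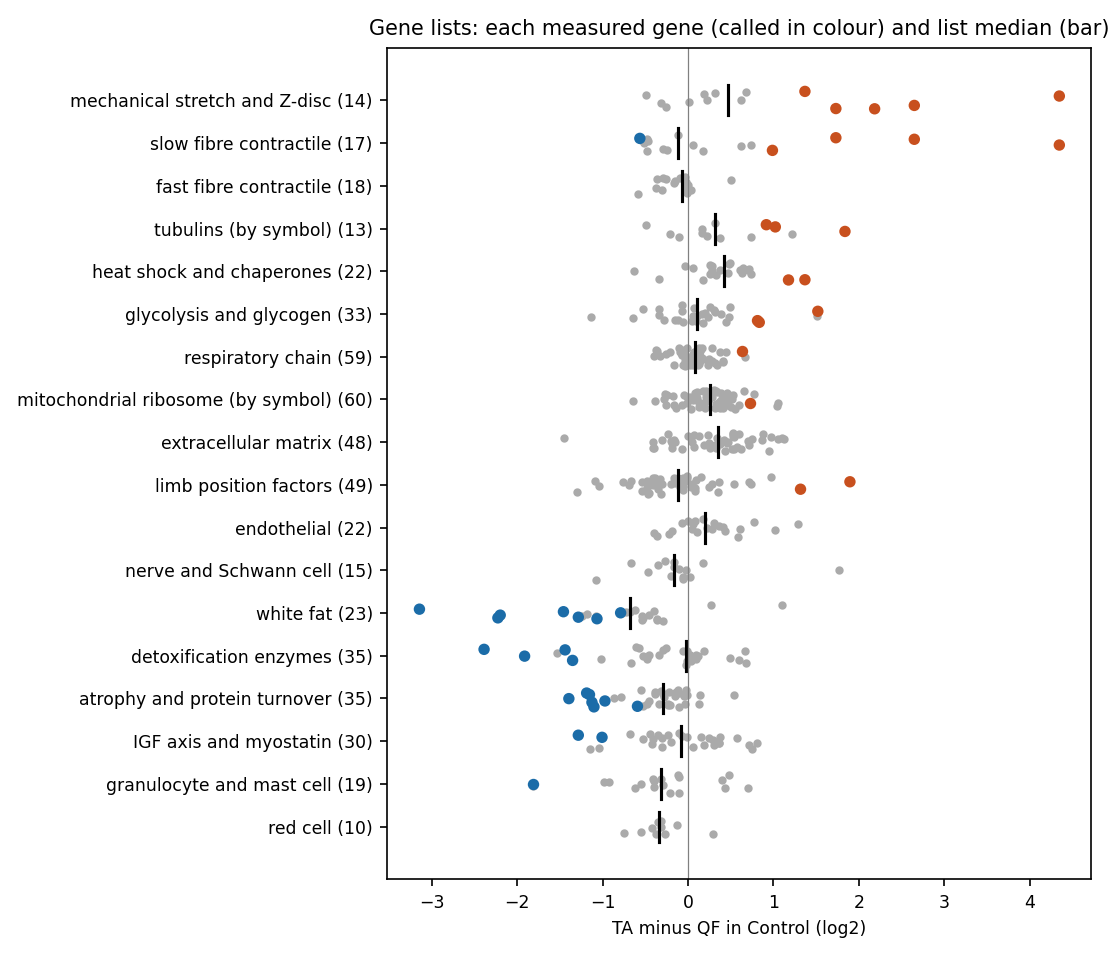
Difference between TA and QF in Control (log2, x axis) of each measured gene in 18 lists (rows, number of measured genes in brackets), with genes called higher in TA in orange, called higher in QF in blue, not called in grey, and the list median as a black bar. The white fat list has its median at -0.68 and 7 blue points, and the stretch and Z-disc list its median at 0.47 and 5 orange points.

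Of 13 tubulin genes, taken by symbol after their values were seen, 3 beta-tubulins were called higher in TA, none lower and 10 did not pass, with a median of 0.32. Tubb6, the class V beta-tubulin of microtubules, read 8.22, 8.0 and 8.43 in QF and 9.97, 10.14 and 10.06 in TA, a difference of 1.84 ± 0.17 (adjusted p = 6.96e-05). The TA arrays all stood well above the QF arrays. Tubb3 and Tubb5 differed by 1.02 ± 0.17 and 0.92 ± 0.18 (adjusted p = 0.0105 and 0.0373). The called probe sets of Tubb6 and Tubb3 carry the suffix f, which marks possible sharing between related genes, and that of Tubb5 carries the suffix r instead. Tuba4a at 0.74 and Tubg1 at 1.22 were not called. Without replicate 3 of Control_TA only Tubb6 of these was called.

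Among the structural genes below, Lmna, Tpm4, Wdr1 and S100a6 lay outside the lists and were named after their values were seen. Lmna, which encodes the nuclear lamins A and C, was 0.87 ± 0.15 higher (adjusted p = 0.0133) by a probe set that may be shared, while its other probe set gave -0.11. Tpm4, a cytoskeletal tropomyosin, was 0.56 higher, Wdr1, a cofactor of cofilin in actin filament turnover, 1.02, and S100a6, calcyclin, a calcium-binding protein, 1.18. Nes, nestin, an intermediate filament protein of young fibres and of the fibre's ends and synapses, read 8.09, 7.61 and 7.75 in QF and 8.55, 8.85 and 8.85 in TA. It was 0.93 ± 0.18 higher in TA (adjusted p = 0.0317) and was the only called gene of 14 neuromuscular junction genes. Smyd1, the methyltransferase that assists myosin folding, was 1.18 ± 0.22 higher (adjusted p = 0.0301), with another probe set at -0.23. Smyd1 and Cryab were the 2 calls among 22 heat shock and chaperone genes (9.09%, against 0.917% of all genes), whose median was 0.42. The other 20 did not pass, among them Hsp90aa1, the inducible cytosolic HSP90, at 0.74, and Hspb8 at 0.49. Without both QF arrays numbered 2, Cryab alone of these was called. The call of Smyd1 was lost in 5 of the 12 fits without 1 array, that of Nes in 8 and that of Tpm4 in 9. That of Wdr1 was lost in 4, that of Lmna in 3 and that of S100a6 in none.

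Plekho1, a pleckstrin homology protein that binds casein kinase 2 and actin capping protein, stood close to the floor in QF at 4.95, 5.27 and 4.82 and at 7.49, 8.10 and 7.27 in TA. The difference was 2.60 ± 0.38 (adjusted p = 0.0046), and the other probe sets of Plekho1, at 1.83 and 0.59, were not called. Other large differences towards TA were Plpp1, a lipid phosphatase of the cell surface, at 1.48 ± 0.22 (adjusted p = 0.00605), and Ndrg4 at 1.39 ± 0.23 (adjusted p = 0.0118). Supv3l1, a mitochondrial RNA helicase, differed by 1.79 ± 0.34 (adjusted p = 0.0307), with 1 of its 3 QF arrays at the floor. The calls of Plekho1 and Plpp1 were kept without any 1 array, while that of Ndrg4 was lost in 4 and that of Supv3l1 in 7 of the 12 fits.

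In energy metabolism, Gbe1, Hk2 and Ugp2 were higher in TA. Of 33 measured genes of glycolysis and glycogen, 3 were called (9.09%, against 0.917% of all genes), all higher in TA, and the median was 0.11. Gbe1, the glycogen branching enzyme, read 7.51, 7.35 and 7.99 in QF and 9.08, 9.13 and 9.20 in TA, a difference of 1.52 ± 0.22 or 2.87-fold (adjusted p = 0.00444), kept without any 1 array. Hk2, the insulin-regulated hexokinase, was 0.81 ± 0.16 higher and Ugp2, which makes UDP-glucose for glycogen, 0.83 ± 0.16 (adjusted p = 0.0347 and 0.035). Those calls were lost without both QF arrays numbered 2, and in 9 (Hk2) and 8 (Ugp2) of the 12 fits that left out 1 array. Gys1, muscle glycogen synthase, differed by 0.81 and was not called (adjusted p = 0.16). Gyg, glycogenin, which starts the glycogen chain, differed by -0.64 and -0.14 in its probe sets, not called, and Pygm, which breaks glycogen down, by 0.07.

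Mitochondrial genes gave few calls. Sdhd, the membrane anchor of succinate dehydrogenase, read 11.63, 11.70 and 11.75 in QF and 12.29, 12.34 and 12.37 in TA. The difference was small and the arrays tight, 0.64 ± 0.09 (adjusted p = 0.00444), and it was the only call among 59 respiratory chain genes, whose median was 0.08. The call of Sdhd was kept without any 1 array and lost under deposited scaling, without the intensity trend and with the 6 Control arrays alone. Ckmt2, the mitochondrial creatine kinase of muscle, was 0.55 ± 0.10 higher (adjusted p = 0.0276), a call lost in 5 of the 12 fits without 1 array. Alas1 and Fdx1, which act in haem and iron-sulphur cluster synthesis, Coq10a, a coenzyme Q binding protein, Mtx2, an outer membrane protein, and Mrps34, of the mitochondrial ribosome, were called between 0.73 and 0.91 and were named after their values were seen. Of the 12 fits without 1 array, Alas1 was lost in 8, Fdx1 in 5, Coq10a in 4, Mtx2 in 10 and Mrps34 in 9. Of 60 mitochondrial ribosome genes taken by symbol, 1 was called and 18 had all TA arrays above all QF arrays (8.16% of all probe sets did), with a median of 0.26. None of 35 genes of fatty acid uptake and oxidation was called, 9 of them with an unadjusted p under 0.05 in limma (9.86% of all probe sets).

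No gene of the extracellular matrix list was called by the probe set that stood for it, although the list leaned to TA. Of 48 measured genes, 36 differed in the positive direction, with a median of 0.36, 17 had all TA arrays above all QF arrays and 18 had an unadjusted p under 0.05. Over all probe sets the corresponding shares were 8.16% and 9.86%. Col6a3, a chain of collagen VI, was 0.71 ± 0.15 higher (adjusted p = 0.0616), Tnxb, tenascin-X, 0.98 ± 0.21 (0.0668), and Postn, periostin, 0.88 ± 0.21 (0.0894), none called. Without replicate 3 of Control_QF 4 genes of the list were called higher in TA, and without both QF arrays numbered 2 none was. Col3a1, a collagen of loose connective tissue, had 3 probe sets that disagreed. The dimmest was called at 1.36 ± 0.20 (adjusted p = 0.00569), reading 7.77, 7.51 and 8.27 in QF and 9.22, 9.28 and 9.11 in TA, and the others differed by 0.06 and -0.22. Sfrp4, a secreted Wnt inhibitor, was 1.94 ± 0.40 higher (adjusted p = 0.0467), a call lost in 10 of the 12 fits without 1 array. The summed level of 23 tendon and fibroblast markers overlapped between the muscles, at 13.29 to 13.34 in QF and 13.26 to 13.33 in TA.

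Position in the limb was marked by 2 homeobox or zinc finger genes. Hoxa11, a posterior Hox gene of the middle limb segment in the embryo, was at the floor on all QF arrays and at 6.49, 6.48 and 6.29 on the TA arrays. TA was at least 3.72-fold higher (difference of 1.90 ± 0.25, adjusted p = 0.00232), and the call was kept under every alternative tried. Zic1, a zinc finger factor of the dorsal midline and of brown fat, was at the floor on all QF arrays too and read 5.91, 5.64 and 5.97 in TA, at least 2.49-fold higher (1.32 ± 0.23, adjusted p = 0.0184). Zic1 was not called without replicate 1 or 2 of Control_QF or replicate 1 or 3 of Control_TA, with an adjusted p of up to 0.0911. Both Hoxa11 and Zic1 were at the floor on the QF arrays of both genotypes and passed the filter only through TA arrays. The floor leaves their QF arrays without spread, so their SE and adjusted p rest partly on floored values and add little to the array values. Of the 49 measured genes of limb position the other 47 did not pass, and the median was -0.12. In the list 33 genes differed in the negative direction, down to -1.30, and 2 had all QF arrays above all TA arrays (5.6% of all probe sets did). Pitx1, the hindlimb factor, overlapped between muscles with a difference of -0.01 ± 0.29. Hoxa9 and Hoxa10, neighbours of Hoxa11 in the cluster, differed by -0.20 ± 0.34 and 0.74 ± 0.49, and Hoxa13, the gene of the foot plate, by -0.49 ± 0.52, none called.

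Of 23 measured genes of white fat cells, 7 were called lower in TA (30.4%, against 0.917% of all genes called), none higher and 16 did not pass. All QF arrays lay above all TA arrays for 15 (5.6% of all probe sets did), and the median was -0.68. In the other direction 2 genes differed, by up to 1.10 without a call, and 1 had all TA arrays above all QF arrays (8.16% of all probe sets did). In whole muscle, fewer fat cells and less RNA per fat cell cannot be told apart. The summed level of the list was 14.07 to 14.21 in QF and 13.36 to 13.54 in TA, with none of its 23 markers at the floor on all 6 control arrays. Cidea, a protein of the lipid droplet surface, gave the largest difference of any probe set towards QF. It read 9.42, 9.24 and 9.43 in QF and 6.50, 6.60 and 5.56 in TA, a difference of -3.14 ± 0.27, 8.84-fold lower in TA (adjusted p = 4.62e-05). Its relative Cidec, which fuses lipid droplets, differed by -2.20 ± 0.36 (adjusted p = 0.0114), with 2 of 3 TA arrays at the floor.

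Adipoq, the hormone adiponectin, secreted by fat cells, was the tightest of the group. It read 10.62, 10.66 and 10.61 in QF and 9.18, 9.20 and 9.13 in TA, a difference of -1.46 ± 0.11 (adjusted p = 1.15e-05). Pck1, the cytosolic phosphoenolpyruvate carboxykinase, which makes glycerol for triglyceride in fat cells, read 8.07, 8.44 and 8.14 in QF and 5.99, 6.17 and 5.82 in TA. Its difference was -2.23 ± 0.27 (adjusted p = 0.00118), and for both genes the muscles were clearly apart. Thrsp, a regulator of fat synthesis, differed by -1.28 ± 0.17 (adjusted p = 0.00238), and Fasn, fatty acid synthase, by -0.79 ± 0.15 (adjusted p = 0.0257). Cebpa, a master factor of fat cells, was 9.33, 9.13 and 9.27 in QF and 8.15, 8.54 and 7.84 in TA (-1.07 ± 0.19, adjusted p = 0.0225).

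Members of the list that did not pass included Retn, resistin, at -1.08 ± 0.23 (adjusted p = 0.0508), and Pparg at -1.24 ± 0.28 (adjusted p = 0.0724), both without overlap of arrays. Fabp4, the fatty acid binding protein of fat cells, which capillaries also express, differed by -0.36, and Cd36 by 0.27. Outside the list Adig, adipogenin, a small protein of fat cells, was -1.82 ± 0.21 (adjusted p = 0.000794). Without both QF arrays numbered 2, 6 of the 7 calls were kept, Fasn was lost and Retn was called instead. The list counted 4 calls without replicate 1 or replicate 3 of Control_TA, and Fasn was lost in 4 of the 12 fits without 1 array. Adipoq, Cidea, Pck1 and Thrsp were kept under every alternative tried. Among brown fat genes Ucp1, the uncoupling protein of brown fat, was at 6.21, 5.71 and 5.86 in QF and at the floor on all TA arrays. QF was at least 2.64-fold higher (-1.40 ± 0.27, adjusted p = 0.029), the call was lost in 7 of the 12 fits without 1 array, and a second Ucp1 probe set gave -0.67 ± 0.51. The called Ucp1 probe set passed the filter only through QF arrays, and its floored TA arrays have no spread, so its SE and adjusted p rest partly on floored values. Of the 8 brown fat genes measured, Cidea and Ucp1 were lower and Zic1 higher in TA.

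A few detoxification enzymes were higher in QF. Of 35 measured, 4 were called lower in TA (11.4%, against 0.917% of all genes called), none higher and 31 did not pass. All QF arrays lay above all TA arrays for 12 (5.6% of all probe sets), while the median of -0.03 was close to that of all probe sets. Cyp2e1, a cytochrome P450 that oxidises ethanol and ketones and is also made in fat, read 10.34, 10.15 and 10.39 in QF and 8.39, 8.33 and 8.42 in TA. This was 3.77-fold lower in TA (-1.91 ± 0.16, adjusted p = 4.62e-05), and every QF array was above every TA array. Ces1d, a carboxylesterase that hydrolyses triglyceride, was called by both probe sets, at -3.10 ± 0.42 and -2.39 ± 0.42 (adjusted p = 0.00291 and 0.0188). For the larger difference 2 of the 3 TA arrays were at the floor, and both probe sets may share probes with related esterases. Gpx3, the secreted glutathione peroxidase, differed by -1.44 ± 0.25 (adjusted p = 0.0151), and Mgst1, a membrane glutathione transferase, by -1.35 ± 0.20 (adjusted p = 0.00569). The cytosolic transferases Gstm1, Gstp1 and Gstm2 differed by -0.34, -0.47 and 0.10 and did not pass. The count dropped to 2 without replicate 1 of Control_QF or without any replicate of Control_TA. The white fat markers above moved in the same direction as these enzymes, and their part in the result was not tested.

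Cdo1, cysteine dioxygenase, which starts the breakdown of cysteine to taurine and is made in liver and fat, belonged to none of these lists. It stood at 10.15, 10.21 and 10.36 in QF and at 7.63, 7.76 and 7.68 in TA, with little spread inside either muscle. The difference was -2.55 ± 0.15, 5.87-fold lower in TA (adjusted p = 1.69e-06).

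Of 35 measured genes of atrophy and protein turnover, 7 were called lower in TA (20%, against 0.917% of all genes called), none higher and 28 did not pass. In all, 32 differed in the negative direction and 16 had all QF arrays above all TA arrays (5.6% of all probe sets did). The median was -0.29. Ctsl, the lysosomal protease cathepsin L, which is induced in wasting muscle, read 11.01, 11.06 and 11.12 in QF and 9.93, 9.91 and 9.78 in TA. It was 2.28-fold lower in TA (-1.19 ± 0.12, adjusted p = 0.000164) and was called under every alternative tried. Cebpd, a transcription factor induced by glucocorticoids, read 10.70, 10.42 and 10.99 in QF and 9.53, 9.62 and 9.51 in TA (-1.15 ± 0.16, adjusted p = 0.00314). Ddit4, an inhibitor of mTORC1 induced by glucocorticoids and low oxygen, read 9.35, 8.99 and 9.54 in QF and 7.63, 8.17 and 7.89 in TA (-1.39 ± 0.22, adjusted p = 0.00841). Each of these genes had its 3 QF arrays above its 3 TA arrays.

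Eif4ebp1, which blocks cap-dependent translation, was -1.12 ± 0.17 (adjusted p = 0.00667). The genes of mitophagy and autophagy were Bnip3 at -1.10 ± 0.18, Retreg1, a receptor for autophagy of the endoplasmic reticulum, at -0.97 ± 0.16, and Map1lc3b, LC3B of the autophagosome membrane, at -0.59 ± 0.12. Their adjusted p were 0.0114, 0.00962 and 0.0345. None of the measured proteasome subunits was called, with differences between -0.39 and -0.02, and the metallothioneins Mt1 and Mt2 differed by -0.48 and -0.87 without passing. Without both QF arrays numbered 2, 5 of the 7 calls were kept, Bnip3 and Map1lc3b were lost, and Mt2 and Sesn1 were called instead. Without replicate 1 or 3 of Control_TA the list counted 3 calls, and Map1lc3b was lost in 9 of the 12 fits without 1 array.

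Growth factor genes gave 2 calls among 30 measured (6.67%, against 0.917% of all genes), both lower in TA. Igfbp3, a carrier of insulin-like growth factors, read 9.35, 9.56 and 9.54 in QF and 8.24, 8.15 and 8.21 in TA. The difference was -1.28 ± 0.15 (adjusted p = 0.000885) and the muscles were well apart, and it was called under every alternative tried. A second, dimmer Igfbp3 probe set overlapped between muscles, at -0.02 ± 0.57. Mstn, myostatin, the inhibitor of muscle growth, read 9.02, 9.35 and 9.64 in QF and 8.43, 8.32 and 8.24 in TA. Its difference of -1.01 ± 0.21 had an adjusted p of 0.043 and was lost in 8 of the 12 fits without 1 array. Igf1 and Igf2 differed by -0.01 and 0.06, and the myostatin receptors Acvr2a and Acvr2b by -0.30 and -0.11, none called.

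Some lists held a single call. Cd68, a lysosomal membrane protein of macrophages, read 7.09, 7.0 and 6.91 in QF and 8.58, 8.61 and 8.62 in TA. The difference was 1.60 ± 0.19 (adjusted p = 0.000931) by a probe set that may be shared, and none of the other 27 macrophage genes was called. The summed level of the macrophage list overlapped, at 12.27 to 12.40 in QF and 12.32 to 12.48 in TA. S100a9, a calcium-binding protein of neutrophils, was higher in QF, at 7.02, 5.96 and 6.48 against 4.53, 4.64 and 4.84 in TA, where 1 array was at the floor. Its difference was -1.82 ± 0.33 (adjusted p = 0.0201), and its partner S100a8, at -1.81 ± 0.38, did not pass (adjusted p = 0.052). The call of S100a9 was lost without replicate 1 of Control_QF or any replicate of Control_TA, with an adjusted p of up to 0.113. The other 18 measured genes of granulocytes and mast cells were not called, and their summed level with S100a9 was 10.68 to 11.05 in QF and 10.42 to 10.64 in TA. Isg20, an interferon-induced exonuclease, was at 6.11, 6.46 and 5.90 in QF and at the floor on all TA arrays (-1.63 ± 0.32, adjusted p = 0.037), and was the only call of 33 antigen presentation and interferon genes. Its call was lost in 7 of the 12 fits without 1 array, and that of Cd68 in none.

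Several lists had no call. They were embryonic and regenerating muscle, with 22 genes and a median of -0.04, calcium release and T-tubule, with 13 and -0.03, the dystrophin complex, with 23 and 0.24, and immediate early genes, with 31 and -0.06. By unadjusted p under 0.05, 5, 3, 6 and 5 genes of these passed in limma, where 9.86% of all probe sets did. Of other cell types, 22 endothelial, 15 pericyte and smooth muscle, 15 nerve and Schwann cell, 13 lymphocyte and 10 red cell markers gave no call. An unadjusted p under 0.05 in limma was reached by 5, 3, 2, 4 and 2 of them, and by 9.86% of all probe sets. Summed endothelial markers were 12.51 to 12.64 in QF and 12.72 to 12.85 in TA. The part of endothelial RNA in the differences above was not tested.

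The same muscles of the Dysf_null mice are set beside those of the controls. The choice of the 76 probe sets did not use the Dysf_null differences, but the Dysf_null arrays entered its filter, normalization and spread. Within a muscle, same-numbered arrays of both genotypes also deviated together, more in QF than in TA, so the counts below are not an independent check. On those arrays 31 of 10331 probe sets were called between TA and QF (0.3%), 10 higher and 21 lower in TA. Of the 42 called higher in TA in Control, 40 differed in the same direction in Dysf_null and 6 were called in it. Of the 34 called lower, 28 differed in the same direction, 12 were called in it and 1 was called the opposite way. Among probe sets not called in Control the same direction was kept by 68.1% of those with a positive and 63.9% of those with a negative difference.

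The fat genes called in Control, the position genes, Cyp2e1 and Cdo1 kept their direction in Dysf_null mice, some with a smaller difference. In Dysf_null mice Cidea differed by -3.70 ± 0.27, Pck1 by -2.38 ± 0.27, Adipoq by -1.12 ± 0.11, Cyp2e1 by -1.52 ± 0.16 and Cdo1 by -1.97 ± 0.15, all called. Thrsp at -1.15 and Fasn at -1.04 were called too. Cidec at -1.88, Cebpa at -0.65 and Adig at -1.02 were not (adjusted p = 0.0557, 0.466 and 0.0876). The white fat list had a median of -0.69 there, against -0.68 in Control. Hoxa11 and Zic1 were again at the floor in all QF arrays. In TA Hoxa11 was at least 1.80 ± 0.25 and Zic1 at least 1.48 ± 0.23 higher, both called. As in Control, these SE and calls rest partly on floored values and on probe sets that passed the filter only through TA arrays. Ucp1 was 7.45, 7.62 and 7.60 in QF of Dysf_null mice and at the floor in TA. There QF was at least 8.19-fold higher (-3.03 ± 0.27, adjusted p = 0.000144). The interaction of Ucp1, the difference in Dysf_null minus that in Control, was not called without a block (adjusted p = 0.348). It was called with the number within muscle as a random block (adjusted p = 0.0245). With the TA arrays of both genotypes at the floor, this interaction compares only the QF arrays. The SE and adjusted p of Ucp1 rest partly on floored values here too.

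Of the 5 called stretch genes, Csrp3, Ankrd2 and Cryab had a called interaction in the fit without a block, and Ankrd1 and Fhl1 did not. Csrp3 read 9.22, 8.55 and 9.24 in QF and 10.07, 10.10 and 10.19 in TA there, a difference of 1.11 ± 0.24 that was not called (adjusted p = 0.123). Its interaction was -3.23 ± 0.34 (adjusted p = 0.00142). Ankrd2 differed by 0.59 ± 0.16 in Dysf_null, with an interaction of -2.05 ± 0.23 (adjusted p = 0.00156). Fhl1 was called in Dysf_null too, at 0.86 ± 0.11 and 1.41 ± 0.19 for its probe sets, with interactions of -0.87 and -0.74 that were not called (the first with an adjusted p of 0.125, and of 0.00304 with the random block). Ankrd1 differed by 0.90 ± 0.34 there, not called. Tubb6 and Cryab both differed by 0.09 in Dysf_null, with interactions of -1.75 ± 0.24 and -1.27 ± 0.20 (adjusted p = 0.0119 and 0.0339). The interaction of Tubb6 was lost in 3 of the 12 fits without 1 array and that of Cryab in 10. S100a9 turned round, at 4.53, 4.53 and 4.96 in QF and 7.32, 7.44 and 7.46 in TA, a difference of 2.74 ± 0.33 (adjusted p = 0.00119) and an interaction of 4.56 ± 0.46 (adjusted p = 0.00115).

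These were 5 of the 7 interactions called over all probe sets (0.0678%). The replicate number within each muscle was also used as a random block, since same-numbered arrays of the genotypes deviated together, mainly in QF. With it, 24 of the 76 and 49 over all probe sets had a called interaction. The atrophy and turnover genes had a median of -0.10 in Dysf_null against -0.29 in Control. There Ctsl differed by -0.32 ± 0.12, Cebpd by -0.17 ± 0.16 and Ddit4 by 0.26 ± 0.22, none called. Their interactions were not called without the block (adjusted p = 0.132, 0.348 and 0.125) and were called with it (adjusted p = 0.0055, 0.00741 and 0.00134). Over all 42 probe sets higher in TA the median difference was 1.16 in Control and 0.36 in Dysf_null, and over the 34 lower it was -1.28 and -0.55. Since the probe sets were chosen by their difference in Control, only the interaction tests whether the genotypes differ.

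**Figure D4:**
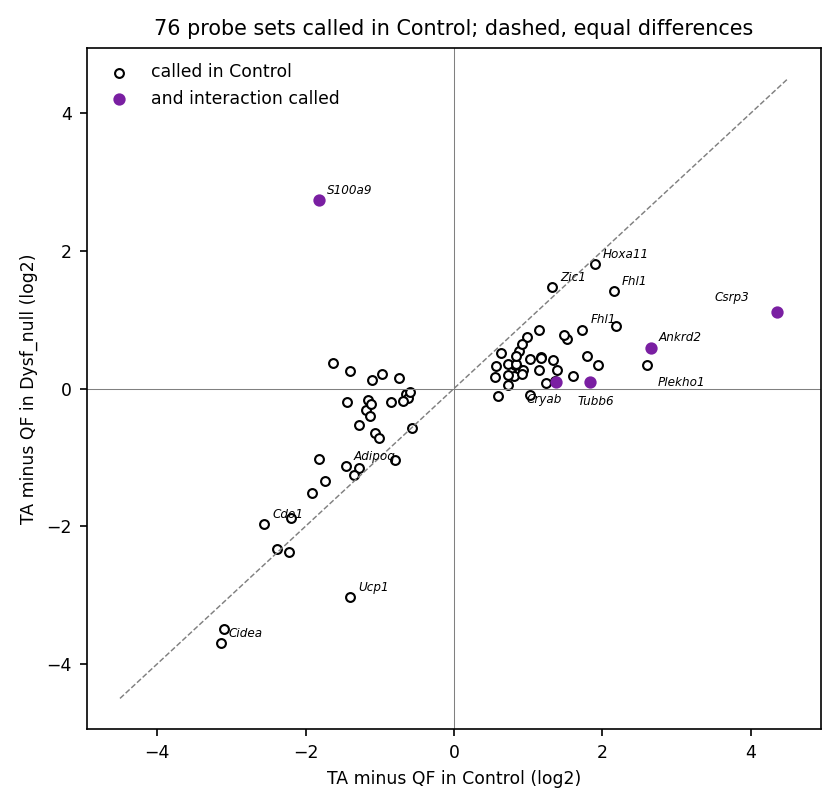
Difference between TA and QF in Dysf_null (log2, y axis) against that in Control (log2, x axis) for the 76 probe sets called in Control, with the 5 whose interaction was called filled and the line of equal values dashed. Cidea, Cdo1, Hoxa11 and Zic1 lie near the dashed line, Csrp3 and Ankrd2 far below it, and S100a9 at -1.82 on the x and 2.74 on the y axis.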

How the data were processed

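Total RNA of muscle had been hybridised to single-channel arrays. Per the labels the table held 1 value per probe set and array. The authors' deposited values were linear intensities whose mean without the lowest and highest 2% was about 200 on each array, as the values show. Their software, background correction, summarisation and genome build were not given in the sources used here.

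Of 12488 probe sets, 66 controls were left out. Since the arrays' medians differed 1.47-fold, above the limit of 1.25, the deposited intensities were quantile normalized, floored at the 25th percentile (23.025) and put on the log2 scale, where the floor is 4.53. A probe set was tested if 3 or more arrays exceeded the floor, which left 10331. A group with all arrays at the floor gives a bound, written "at least". Such a group has no spread, and the SE and p of its probe set rest partly on the floored values. Precision is limited by the number of arrays, and the median SE was 0.323 (log2).

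Group means were fitted to 12 arrays with limma 3.58.1 in R 4.3.3 (intensity trend, 8 residual degrees of freedom, two-sided, Benjamini-Hochberg). Symbols came from the platform's annotation: 10833 probe sets had 1, 396 several and 1193 none, and only the first kind were named. The reference gene table of GRCm38.p6 changed 0 symbols. In a list, a gene with several probe sets is represented by the brightest.

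Genes eligible to be named were up to 15 each way with the largest called differences and no overlap. Added to them were called genes of the 36 lists (801 of 1068 genes measured). All limb position, fibre type and sex-linked genes were eligible too, with up to 4 others per list. Not all of these are described. Other named genes were chosen after their values were seen. The groups, lists and rules were chosen with earlier results of these data known.

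Same-numbered arrays of TA and QF did not deviate together in Control (r = -0.012, -0.093 and -0.006). In Dysf_null their r was 0.077, -0.141 and 0.123, so the values gave no clear sign of pairing. The labels do not say whether same-numbered muscles came from the same mouse, and so few arrays cannot exclude it. Same-numbered arrays of the 2 genotypes deviated together within QF (r = 0.39, 0.71 and 0.66) and less so within TA (r = 0.18, 0.11 and 0.23). This bears on the interaction and on the counts of differences shared by the genotypes. The random block used the same correlation (0.520) for both muscles. The fit was tested on simulated data. Alternatives covered scaling, floor, filter, variance model, samples, replicate block and single arrays.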

Additional observations from a re-analysis of the deposited data

Results flagged for a closer look

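For 5 of the genes called between TA and QF in Control, limma called the interaction, which tests the difference in Dysf_null minus that in Control over all probe sets. Csrp3 gave -3.23 (adjusted p = 0.00142), Ankrd2 -2.05 (0.00156), Tubb6 -1.75 (0.0119), Cryab -1.27 (0.0339) and S100a9 4.56 (0.00115). Leaving out each array in turn, Csrp3 stayed between -3.46 and -2.93, Ankrd2 between -2.19 and -1.92 and S100a9 between 4.29 and 4.82, always called, with adjusted p of up to 0.0102, 0.0105 and 0.00919. Tubb6 was lost without replicate 2 of Dysf_null_TA, replicate 2 or replicate 3 of Control_TA (adjusted p of up to 0.0617), without the intensity trend and with the fixed block. Cryab was lost without any 1 of 10 arrays (adjusted p of up to 0.139) and under 6 other settings, with an adjusted p of up to 0.358.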

How the results depend on the processing

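No value changed direction while called. The main fit called 76 probe sets between TA and QF in Control (42 higher and 34 lower in TA), with 5 interactions among them. Deposited scaling, the other floors and filters, array weights, the random block and the fit without both QF arrays numbered 2 gave 61 to 87. Without the intensity trend there were 42 (20 higher, 22 lower, 3 interactions). The 6 Control arrays alone, with 4 residual degrees of freedom, gave 21 (9 and 12) and no interaction value. With genotype and number as a fixed replicate block, which also leaves 4 degrees of freedom, there were 32 (19 and 13, with 3 interactions). Of the 6 control arrays 0 correlated best with their own number, which does not exclude that same-numbered muscles came from the same mouse. With number within muscle as a random replicate block (correlation 0.520) the calls were 80 and the interactions 24 (49 over all probe sets, against 7 without it). Leaving out 1 array gave 35 to 147 calls, 19 to 95 higher and 15 to 52 lower, with 3 to 6 interactions, and the cause of this range was not tested. Of the 76 calls, 29 were kept without any 1 array and 17 under all settings. An unadjusted p under 0.05 was reached by 1019 probe sets.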
